A study of Homo sapiens with 40 samples.

Results

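RNA levels of 10 genes of the S100 family (S100A2, S100A3, S100A4, S100A6, S100A10, S100A11, S100A13, S100A14, S100A16 and S100P) were followed across 10 lines of H1299, a human lung carcinoma cell line. They were taken by exact gene symbol from a table of 59251 symbols, and all 10 were present in it. Each line was sequenced as 4 biological replicate cultures, 40 libraries in all, by RNA-seq. The lines were MYO10 knockout clones 98 and 99, MYO10 knockdown clone 84, JAG1 knockout clones 35 and 72, wild-type clones 38 and 75, a leader line (3L2), a follower line (3F2) and parental H1299 cells. The 7 numbered clones were labelled as edited with CRISPR-Cas9, and the series title places the editing in leader cells. Wild-type clones 38 and 75 went through editing and kept wild-type MYO10 and JAG1. The leader, follower and parental lines were untreated and wild-type for both genes. Leader and follower are names for cells at the front of a collectively invading group and for those behind them. Each numbered line is 1 clone, so for a genotype held by 1 clone, as MYO10 knockdown is by clone 84, the clone and the genotype cannot be told apart. Leaders and followers are likewise 1 line each, so line and cell state cannot be told apart. Clone 84 is titled a knockout, while its genotype label says MYO10 KD, and it was kept separate.

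S100 proteins are small calcium-binding proteins that mostly act as dimers, each subunit carrying a pair of EF-hand motifs. Binding of calcium opens a surface through which most of them bind partner proteins, and several are also released from cells and act on surface receptors. S100A10 is an exception, having lost calcium binding in its EF-hands; it joins annexin A2 in a complex at the plasma membrane that takes part in plasminogen activation. S100A4 binds non-muscle myosin II and is widely used as a marker of motile, metastatic tumour cells. Most S100A genes lie together in the epidermal differentiation complex on the long arm of chromosome 1, while S100P lies on chromosome 4.

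Libraries held between 40038816 and 44013445 counts. MYO10 averaged 63.4 and 52.0 CPM (counts scaled to the library total with TMM factors) in knockout clones 98 and 99, 150 CPM in clone 84, 491 and 441 CPM in wild-type clones 38 and 75, and 645 CPM in leaders. It averaged 248 and 518 CPM in JAG1 knockout clones 35 and 72 and 312 CPM in parental cells, and was near 0 in followers, at 0.112 CPM. JAG1 averaged 32.4 CPM in JAG1 knockout clone 35 and 6.49 CPM in clone 72, against 44.2 and 40.5 CPM in wild-type clones 38 and 75. JAG1 RNA of clone 35 was thus close to that of the wild-type clones, and the difference over both knockout clones did not pass the test (edgeR adjusted p = 0.54). JAG1 averaged 80.5 and 102 CPM in clones 98 and 99, 151 CPM in clone 84, 139 CPM in leaders, 17.5 CPM in followers and 295 CPM in parental cells. Counts per gene do not show the edit itself. VIM, a mesenchymal marker, was abundant in every line (1066 to 2730 CPM), KRT18 ran from 49.9 to 722 CPM, and EPCAM did not exceed 0.110 CPM. The lung lineage marker NKX2-1 stayed at or below 1.28 CPM and SFTPC at or below 0.0123 CPM. Markers of leukocytes (PTPRC, CD3E), endothelium (CDH5) and keratinocytes (KRT5, KRT14) were at or near 0 in all lines. The other leukocyte marker, LYZ, reached a line mean of 0.127 CPM in clone 84. The other endothelial marker, PECAM1, reached 0.318 CPM in MYO10 knockout clone 99.

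Upstream sequences are shown for S100A16, S100A4 and S100A13, the genes whose levels differed between lines in the comparisons below. Each is the 250 bases before a transcription start in RefSeq (GRCh38.p14), on the minus strand, written 5′ to 3′. Capitals mark TATAAA (a core element of some promoters), TGANTCA (the core bound by AP-1 factors) or GGGCGG (a GC box), each searched on both strands; the motifs do not overlap each other here.
S100A16 chr1:153613138-153613387: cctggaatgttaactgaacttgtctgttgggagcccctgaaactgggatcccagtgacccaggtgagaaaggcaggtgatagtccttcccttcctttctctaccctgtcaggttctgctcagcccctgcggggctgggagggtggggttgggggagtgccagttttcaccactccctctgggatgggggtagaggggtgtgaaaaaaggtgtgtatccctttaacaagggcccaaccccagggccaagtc
S100A16 chr1:153609356-153609605: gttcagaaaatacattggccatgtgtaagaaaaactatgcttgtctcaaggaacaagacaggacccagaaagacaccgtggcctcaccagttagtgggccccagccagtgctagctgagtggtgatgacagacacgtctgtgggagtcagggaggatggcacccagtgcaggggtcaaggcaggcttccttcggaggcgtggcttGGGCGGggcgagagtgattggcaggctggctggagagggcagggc
S100A4 chr1:153545807-153546056: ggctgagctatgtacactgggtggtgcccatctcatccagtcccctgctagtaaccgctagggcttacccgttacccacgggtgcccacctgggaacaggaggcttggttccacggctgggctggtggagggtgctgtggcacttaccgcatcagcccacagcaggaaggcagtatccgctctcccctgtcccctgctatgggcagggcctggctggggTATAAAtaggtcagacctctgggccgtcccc
S100A13 chr1:153634362-153634611: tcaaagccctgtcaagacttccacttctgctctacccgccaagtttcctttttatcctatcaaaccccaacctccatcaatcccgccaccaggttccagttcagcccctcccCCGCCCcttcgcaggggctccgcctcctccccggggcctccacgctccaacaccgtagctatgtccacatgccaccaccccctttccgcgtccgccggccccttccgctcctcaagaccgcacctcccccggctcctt
The more distal S100A16 window held none of the motifs and 1 CG pair, and the other one held a GGGCGG and 6 CG pairs. The S100A4 window held TATAAA beginning 31 bases before the start, and 7 CG pairs. The S100A13 window held a GGGCGG on the opposite strand and 15 CG pairs. RefSeq gives S100A13 other starts as well, and a TATAAA begins 29 bases before the one that follows chr1:153627506-153627755. Over all 35116 windows of this length, TATAAA occurred in 10.7%, TGANTCA in 6.57% and GGGCGG in 42.6%, and the median number of CG pairs was 11. Which start was used in these cells was not measured.

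As counted, the RNA of the 10 genes was mostly S100A10 and S100A11 in all lines. S100A10, the annexin A2 partner, averaged 195 CPM over the 40 libraries, and S100A11, a partner of annexin A1, averaged 94.6 CPM. Together they made up between 71.9% and 95.9% of the summed CPM of the 10 genes in each library. S100A6 enters this sum with 2 counts in all, a value not read below as absence. The share and the order of genes therefore hold without S100A6, whose level is not known here. Per kilobase of annotated exon (GENCODE 29), the means over all libraries were 139 CPM for S100A11, 126 for S100A10, 12.7 for S100A13, 6.68 for S100A2, 2.87 for S100A16, 0.946 for S100A4 and 0.197 for S100A3. The first 2 thus stood about an order of magnitude above the next on this scale.

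S100A10 cultures of MYO10 knockout clone 98 held 256, 272, 346 and 287 CPM, and those of clone 99 held 172, 175, 194 and 148 CPM. Wild-type clone 38 held 225, 202, 220 and 196 CPM, and wild-type clone 75 held 175, 160, 161 and 156 CPM. Every culture of clone 98 lay above every wild-type culture, whereas clone 99 overlapped with wild-type clone 75. S100A10 was lowest in JAG1 knockout clone 72, with 110, 127, 125 and 123 CPM, and stood at 218, 224, 203 and 210 CPM in clone 35. S100A11 followed the same outer order, with 130 ± 18.8 CPM in clone 98 as the highest mean and 64.0 ± 2.15 CPM in clone 72 as the lowest (SD, n = 4 each). Between them the lines formed a narrow range, and most neighbours in the order of means did not differ beyond their spread.

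A gene was called where its adjusted p, from edgeR's quasi-likelihood test with Benjamini-Hochberg adjustment over 19703 genes, was under 0.05 and its log2 fold change at least 1 in size. By that rule S100A10 and S100A11 were each called in 1 of the 45 pairs of lines, against a median of 16.8% of all tested genes called per pair (4.37% to 27.7%). For both it was the pair of clones 98 and 72, with a log2 difference of 1.26 for S100A10 and 1.03 for S100A11. Smaller differences passed the adjusted p alone, as did 23.8% of all genes for MYO10 knockout and 28.7% for clone 84 against the wild-type clones. S100A11 was higher in the MYO10 knockout clones than in the wild-type clones, at 116 against 78.8 CPM, a log2 difference of 0.55 ± 0.07 (SE; edgeR adjusted p = 0.036). It was also higher in clone 84, at 110 against 78.8 CPM, by 0.48 ± 0.09 (edgeR adjusted p = 0.0028). Unedited lines averaged 97.6 CPM of S100A11 in leaders, 100 CPM in followers and 81.5 CPM in parental cells. Clone 98 averaged 130 CPM and clone 99 averaged 102 CPM, which did not pass against followers (edgeR adjusted p = 0.86).

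**Figure D1:**
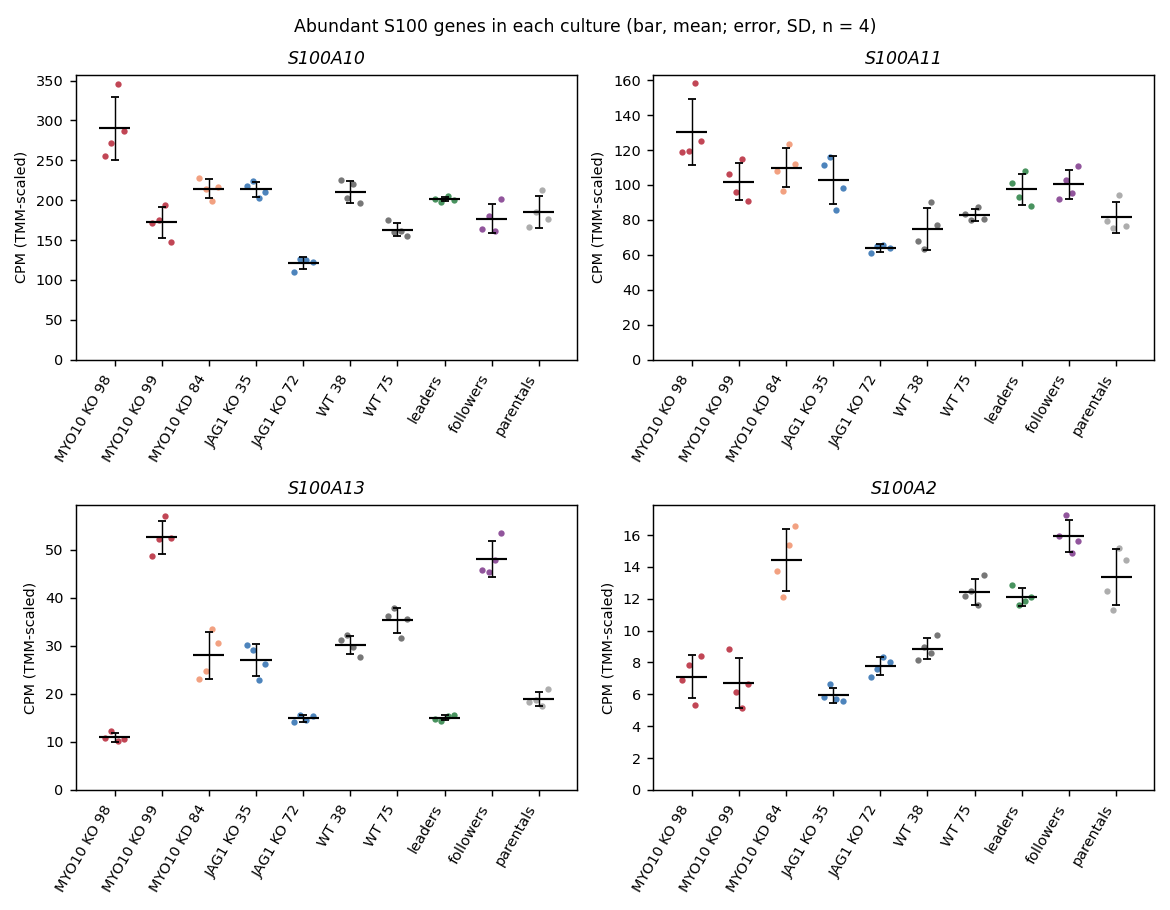
S100A10, S100A11, S100A13 and S100A2 in CPM (vertical axes) in each culture of the 10 lines (horizontal axes); points are cultures, bars the mean of 4 and error bars the SD. S100A10 and S100A11 are highest in MYO10 knockout clone 98 and lowest in JAG1 knockout clone 72, while S100A13 is highest in MYO10 knockout clone 99 (52.6 CPM) and followers (48.1 CPM).

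S100A16, a widely expressed family member whose EF-hand at the N-terminal end does not bind calcium, had the widest range. Cultures of MYO10 knockout clone 98 held 2.02, 2.33, 3.32 and 3.30 CPM, and those of clone 99 held 25.8, 24.4, 25.2 and 31.8 CPM. Wild-type clone 38 held 0.690, 0.196, 0.568 and 0.653 CPM, and wild-type clone 75 held 0.781, 0.626, 0.775 and 0.603 CPM. All 8 knockout cultures lay above all 8 wild-type cultures, and the clones of the knockout did not overlap with each other.

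Against the wild-type clones, S100A16 rose in the MYO10 knockout clones by 3.81 ± 0.27 on the log2 scale (SE; edgeR adjusted p = 0.00011), with single pairs of clones between 1.97 and 5.66. S100A16 and S100A4 were the 2 of 7 tested family members called in this comparison, both higher, where 8.06% of all genes tested were called. The size depended on the clone, since S100A16 was lower in clone 98 than in clone 99 by a log2 difference of -3.29 ± 0.30 (edgeR adjusted p = 9.6e-11). These standard errors cover the spread between cultures and leave out that between clones. With counts summed per line, so that the clone was the unit, S100A16 differed by 4.59 with an edgeR adjusted p of 0.42, and no gene passed in that comparison with 3 residual degrees of freedom (2376 had an unadjusted p under 0.05).

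The wild-type clones themselves stood apart from unedited cells in S100A16. Leaders held 4.62, 3.20, 5.95 and 3.79 CPM, followers 4.41, 5.15, 4.21 and 4.54 CPM, and parental cells 5.20, 4.97, 6.22 and 6.28 CPM. No culture of the wild-type clones reached the level of any of these, and the 3 unedited lines did not pass the test against each other. S100A16 fell in wild-type clones against leaders, to 0.611 CPM against 4.39 CPM, a log2 change of -2.85 ± 0.30 (edgeR adjusted p = 4.7e-07). S100A13 was the other member called there, 2 of 7 tested members with 9.98% of all genes called. Set against leaders in place of the wild-type clones, S100A16 in clone 98 differed by -0.68 (edgeR adjusted p = 0.057) and in clone 99 rose by 2.61 (edgeR adjusted p = 2.1e-09). Clone 98 was thus called against the wild-type clones, while its difference from leaders did not pass.

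Clone 84 was uneven in S100A16. Its cultures 1 and 2 held 0.978 and 0.943 CPM, and its cultures 3 and 4 held 5.16 and 4.11 CPM. The first pair lay just above the wild-type clones and the second at the level of leaders. Against the wild-type clones S100A16 rose by 2.20 ± 0.32 (SE; edgeR adjusted p = 9.3e-05), as the single called member of 7 tested, with 7.19% of all genes called. Without cultures 3 and 4, a check chosen after seeing the data, the difference was 0.65 with an edgeR adjusted p of 0.35. The difference of clone 84 from leaders was -0.65 (edgeR adjusted p = 0.081).

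In the JAG1 knockout clones S100A16 took separate levels. Clone 35 held 0.540, 0.609, 0.545 and 0.737 CPM, within the range of the wild-type clones. Clone 72 had 1 S100A16 count in its 4 libraries together, against 87 in wild-type clone 38 and 121 in wild-type clone 75. A count of 0 in a library allows up to 3 counts, or 0.0682 to 0.0749 CPM, and every culture of clone 35 and of the wild-type clones lay above that. By summed counts, clone 35 was 102 times as high as clone 72, with a counting interval of 17.9 to 4063 (95%), and S100A16 was called between them (log2 difference 6.09 ± 1.18, edgeR adjusted p = 3.9e-05). Without culture 3 of clone 72, which holds that count, clone 72 had none and the fitted difference was 7.69. The direction depended on which of the clones were paired, so S100A16 was not called for JAG1 knockout. None of the 7 tested members was called for JAG1 knockout against the wild-type clones, and 2.06% of all genes were.

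**Figure D2:**
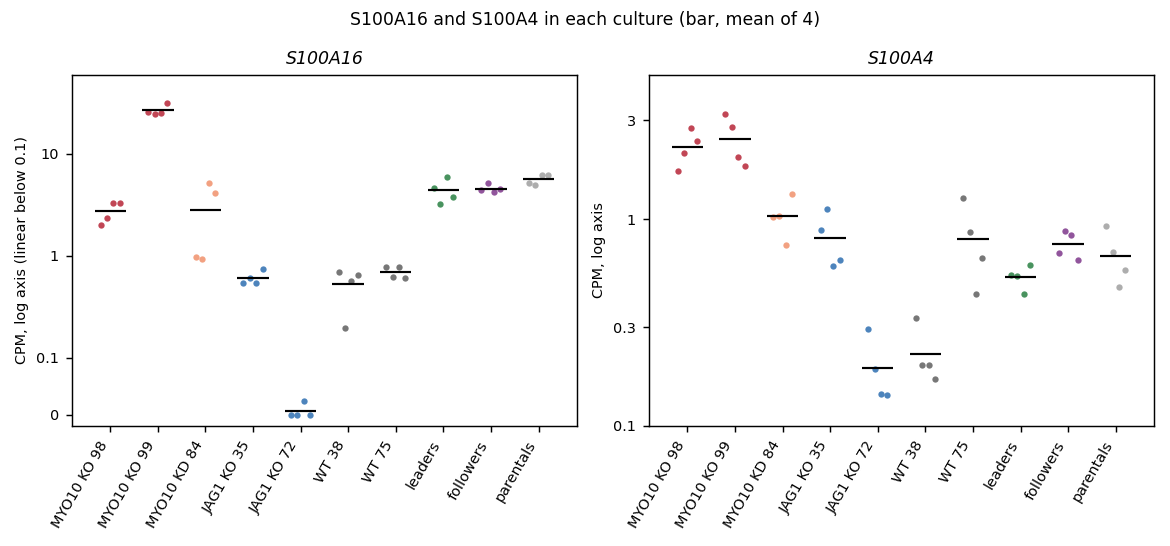
S100A16 (left) and S100A4 (right) in CPM on a log axis, linear below 0.1 for S100A16, in each culture of the 10 lines; points are cultures and bars the mean of 4. MYO10 knockout clone 99 holds the highest S100A16 (24.4 to 31.8 CPM), JAG1 knockout clone 72 sits at 0 apart from 1 count, and clone 84 splits into 2 low and 2 high cultures.

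S100A4, also called metastasin, was a low-count gene with 6 to 139 counts per library. Its highest levels were in the MYO10 knockout clones, with 1.70, 2.08, 2.75 and 2.39 CPM in clone 98 and 3.21, 2.79, 2.00 and 1.80 CPM in clone 99. Wild-type clone 38 held 0.333, 0.196, 0.198 and 0.169 CPM, and wild-type clone 75 held 1.27, 0.866, 0.433 and 0.649 CPM. All knockout cultures lay above all wild-type cultures, and the knockout clones overlapped with each other. S100A4 rose in MYO10 knockout by 2.45 ± 0.19 on the log2 scale (SE; edgeR adjusted p = 3.4e-06), with pairs of clones between 1.46 and 3.43.

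Unlike S100A16, S100A4 was also called higher in both knockout clones than in leaders, which held 0.537, 0.533, 0.432 and 0.599 CPM. The log2 changes were 2.08 ± 0.26 in clone 98 (edgeR adjusted p = 2.3e-09) and 2.22 ± 0.26 in clone 99 (edgeR adjusted p = 4.3e-10), where 20.7% and 20.0% of all genes were called. With counts summed per line the change against the wild-type clones was 2.18 with an edgeR adjusted p of 0.42. Clone 84 had 1.03 ± 0.235 CPM (SD, n = 4), a log2 difference of 1.27 from the wild-type clones that did not pass (edgeR adjusted p = 0.37), the difference from wild-type clone 75 alone being 0.36. The wild-type clones differed from each other, S100A4 being lower in clone 38 than in clone 75 by a log2 difference of -1.83 ± 0.32 (edgeR adjusted p = 2.1e-05). It was the single member called of 7 between them, with 4.37% of all genes called.

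Between the JAG1 knockout clones S100A4 split as S100A16 did. Clone 35 held 0.883, 1.12, 0.595 and 0.635 CPM, and clone 72 held 0.294, 0.189, 0.142 and 0.141 CPM. The clones did not overlap, clone 35 lying at the level of wild-type clone 75 and clone 72 at that of wild-type clone 38. S100A4 was called between them (log2 difference 2.07 ± 0.34, edgeR adjusted p = 8.3e-07). It and S100A16 were the 2 called members of 7, with 21.0% of all genes called, and 6 of 7 passed the adjusted p regardless of size, as did 61.9% of all genes.

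S100A13 is known for its part in the release of FGF1 and interleukin-1 alpha from stressed cells. Leaders held 14.8, 14.4, 15.5 and 15.6 CPM, against 45.7, 45.4, 47.8 and 53.4 CPM in followers. Parental cells held 18.3, 18.7, 17.6 and 21.0 CPM. Followers lay far above both other lines, with no overlap. S100A13 fell in leaders against followers, with a log2 change of -1.67 ± 0.09 (SE; edgeR adjusted p = 1.2e-20), and it was the single member called of 7, with 25.4% of all genes called. It rose in followers against parental cells by 1.35 ± 0.09 (edgeR adjusted p = 2.1e-17), again alone of 7, with 20.3% of all genes called. Between leaders and parental cells no member was called, while 9.76% of all genes were. The standard errors and p-values here cover the spread between cultures of 1 line each, and not that between leader or follower lines.

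Edited clones spread over the whole range of S100A13. MYO10 knockout clone 98 held 10.9, 12.4, 10.2 and 10.7 CPM, the lowest of all lines, and clone 99 held 48.6, 52.3, 57.0 and 52.5 CPM, the highest mean, which did not pass against followers (edgeR adjusted p = 0.17). Wild-type clones 38 and 75 averaged 30.2 ± 1.95 and 35.3 ± 2.65 CPM (SD, n = 4 each), between those 2. The knockout clones lay on opposite sides of the wild-type clones, and no change with MYO10 knockout was called. Between clones 98 and 99 S100A13 differed by -2.26 ± 0.09 (edgeR adjusted p = 7.3e-24). With S100A16 it made 2 called members of 7, both lower in clone 98, with 9.55% of all genes called. In the wild-type clones S100A13 rose against leaders by 1.12 ± 0.08 (edgeR adjusted p = 1.0e-12).

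JAG1 knockout clone 35 averaged 27.1 ± 3.29 CPM of S100A13 and clone 72 averaged 15.0 ± 0.713 CPM (SD, n = 4 each). In GENCODE 29, 33.5% of the exonic bases of S100A13 are shared with other genes, 24.2% on the same strand, and 235 bases lie opposite S100A1. The strand setting of the counting is not given in the sources used here, so reads in the shared parts cannot be told apart. S100A1 itself stood between 0.545 and 1.24 CPM and was called in none of the 10 comparisons.

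**Figure D3:**
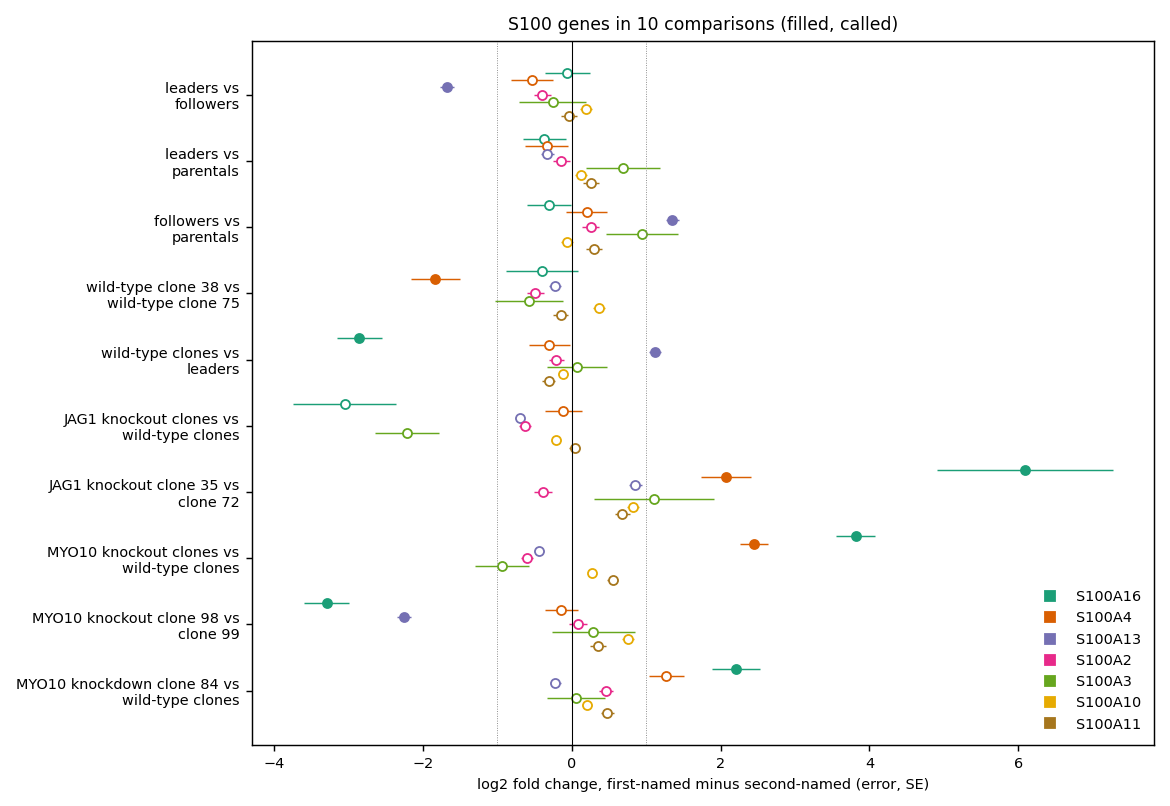
Log2 fold change, first-named minus second-named (horizontal axis), of the 7 tested S100 genes in the 10 comparisons (vertical axis); error bars are SE, colours mark genes, filled points were called and dotted lines mark a change of 1. S100A16 reaches 3.81 for MYO10 knockout and 6.09 between JAG1 knockout clones 35 and 72, while S100A10 and S100A11 stay inside the dotted lines throughout.

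S100A2, a family member first described in breast epithelium and found in nuclei, ranged from 5.94 ± 0.476 CPM in JAG1 knockout clone 35 to 15.9 ± 1.02 CPM in followers (SD, n = 4 each). It was called in none of the 10 comparisons, although it was called in 10 of the 45 pairs of lines. A median of 16.8% of all tested genes were called per pair. In the MYO10 knockout clones it averaged 6.91 against 10.7 CPM in the wild-type clones, a log2 difference of -0.60 ± 0.08 (edgeR adjusted p = 0.048). S100A3, best known from hair follicles, had at most 23 counts in a library, and its line means ran from 0.0361 CPM in JAG1 knockout clone 72 to 0.316 CPM in wild-type clone 75. It too was called in none of the 10 comparisons, although it was called in 15 of the 45 pairs of lines. Its difference between JAG1 knockout and wild-type clones was -2.21 ± 0.43 (edgeR adjusted p = 0.24).

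S100A6, S100A14 and S100P did not pass the filter on low counts and were not tested. S100P had 71 counts over the 40 libraries, 0 in 6 of them and at most 6. S100A14 had 78, with 0 in 8 libraries and at most 10, that one in MYO10 knockout clone 99. S100A6, otherwise known as calcyclin and abundant in many cultured cells, was listed with 2 counts in all and 0 in 38 libraries. LDHA, a glycolytic enzyme that growing cells use, had 26 counts in all, and ZYX, a focal adhesion protein, had 136 (both genes named after their values were seen). A value near 0 in this table can thus occur for genes that cultured cells generally express, and it is not read here as absence of S100A6 RNA.

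The genes of S100 partners were described from lists of known annexins, plasminogen activators, intracellular targets, receptors and other EF-hand proteins. Of 5 annexin genes, all tested, ANXA1 was called in 7 of the 10 comparisons. In those 7, between 4.37% and 25.4% of all genes were called. ANXA1, the partner of S100A11, averaged 96.1 CPM in MYO10 knockout clones against 11.9 CPM in wild-type clones, a log2 change of 3.41 ± 0.15 (edgeR adjusted p = 4.8e-10). It rose to 110 CPM in clone 84, by 3.63 ± 0.16 (edgeR adjusted p = 3.5e-12). The wild-type clones differed in ANXA1, at 3.94 CPM in clone 38 and 19.9 CPM in clone 75 (log2 difference -2.33 ± 0.22, edgeR adjusted p = 7.9e-10). Leaders held 15.5 CPM of ANXA1 against 626 CPM in followers, a log2 change of -5.33 ± 0.21 (edgeR adjusted p = 1.9e-20). ANXA2, the partner of S100A10, ran from 427 to 1101 CPM over lines. It was called only between JAG1 knockout clones 35 and 72, at 1010 against 427 CPM (log2 difference 1.24 ± 0.05, edgeR adjusted p = 1.1e-24). In that same comparison 3 of the 5 annexin genes were called higher, with 21.0% of all genes called. The list had a median log2 difference of 1.19, against 0.00 over all genes.

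Of the plasminogen system genes, 6 of 7 were tested, PLG itself being at or near 0. In leaders against followers 1 was called higher and 3 lower, with 25.4% of all genes called. The list median was -1.36, against 0.01 over all genes. PLAT, tissue plasminogen activator, averaged 2.46 CPM in leaders against 19.7 CPM in followers (edgeR adjusted p = 2.0e-20). In MYO10 knockout clones against wild-type clones PLAUR, the urokinase receptor, was the single one called (105 against 50.5 CPM, log2 change 1.03 ± 0.10, edgeR adjusted p = 0.0094). Of all genes 8.06% were called there.

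Of 17 intracellular targets, 15 were tested. DLC1, a GTPase-activating protein, was the single target called with MYO10 knockout (13.2 against 5.22 CPM, log2 change 1.35 ± 0.13, edgeR adjusted p = 5.1e-06), with 8.06% of all genes called. In leaders against followers 2 targets were called higher and 3 lower, with 25.4% of all genes called. MYH14, a non-muscle myosin II heavy chain, averaged 54.9 CPM in leaders against 0.00628 CPM in followers. FGF1, whose release S100A13 takes part in, averaged 3.41 CPM in leaders against 13.9 CPM in followers (log2 change -2.03 ± 0.32, edgeR adjusted p = 1.4e-06). PPFIBP1, or liprin beta 1, a partner of S100A4, was the single target called in clone 84 against wild-type clones (294 against 147 CPM, log2 change 1.00 ± 0.06, edgeR adjusted p = 1.2e-14). Of all genes 7.19% were called there. The list medians were -0.01 for MYO10 knockout and 0.15 for leaders against followers, each beside 0.00 and 0.01 over all genes.

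Of 7 receptor genes for released S100 proteins, 6 were tested. MCAM was called higher in MYO10 knockout clones than in wild-type clones (10.2 against 3.07 CPM, log2 change 1.80 ± 0.11, edgeR adjusted p = 2.0e-09) and lower in clone 84 (0.653 against 3.07 CPM, log2 change -2.16 ± 0.19, edgeR adjusted p = 1.0e-08). The first comparison called 8.06% of all genes and the second 7.19%. AGER, encoding RAGE, had at most 22 counts in a library, and TLR4 at most 1. Of 21 other EF-hand genes 19 were tested, and with MYO10 knockout 1 was called lower and none higher, EFHD1 at 4.76 against 9.52 CPM. That comparison called 8.06% of all genes. Of 11 other S100 genes S100A1 alone was tested, and of 15 other genes of the epidermal differentiation complex TCHH alone.

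Genes near the family on chromosome 1 were set beside it in the 3 comparisons between clones that had 2 called members. Within 1 Mb of the stretch from S100A10 to S100A13, 61 genes outside the family were tested. For MYO10 knockout against wild-type clones 1 of them was called, lower (1.64%, against 8.06% of all genes), and their median log2 difference was -0.25, against 0.00 over all genes. Between clones 98 and 99, 2 of 61 were called (3.28%, against 9.55% of all genes), both higher in clone 98, with a median of 0.40 against -0.01 over all genes. The median in clone 98 was thus higher than in clone 99, whereas S100A16 and S100A13 were lower in clone 98. Between JAG1 knockout clones 35 and 72, where S100A16 and S100A4 were higher in clone 35, 8 of 61 neighbours were called (13.1%, against 21.0% of all genes), 1 higher and 7 lower, with a median of -0.33 against 0.00 over all genes. Around S100P on chromosome 4 no comparison was drawn, the gene itself being untested.

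**Figure D4:**
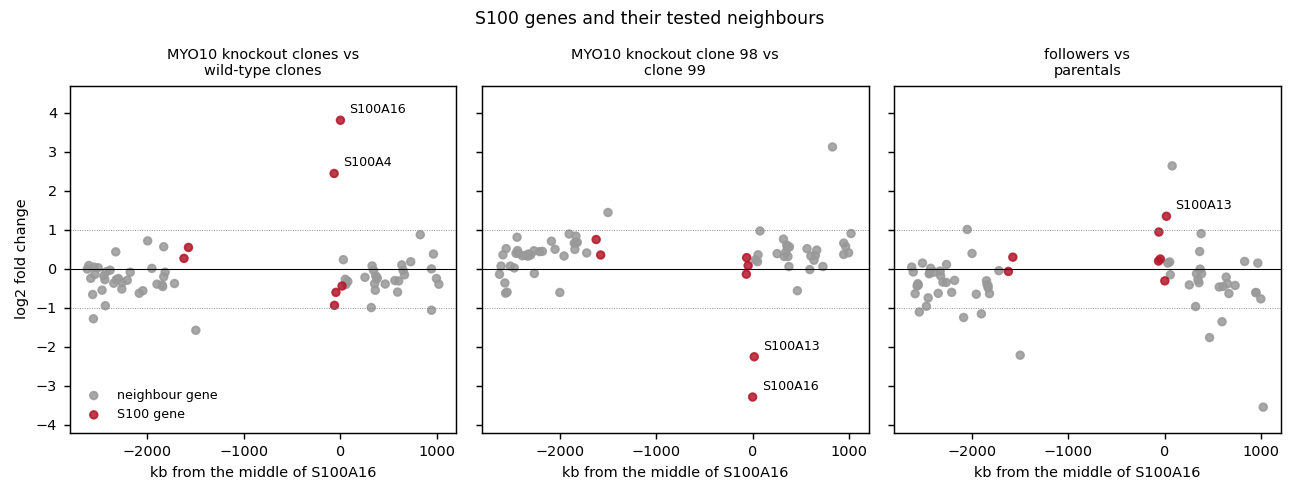
Log2 fold change (vertical axis) of S100 genes (red) and other tested genes (grey) against distance from the middle of S100A16 in kb (horizontal axis). Distances run between gene middles. Panels show MYO10 knockout against wild-type clones, clone 98 against clone 99, and followers against parental cells. Dotted lines mark a change of 1, and called S100 genes are named. S100A16 and S100A4 stand above their neighbours for MYO10 knockout, and S100A13 (-2.26) and S100A16 (-3.29) below theirs between clones 98 and 99.

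Across the means of the 10 lines on the log2 CPM scale, S100A4 and S100A11 had a Pearson coefficient of 0.85, S100A10 and S100A11 of 0.77, and S100A4 and S100A16 of 0.74. S100A13 stayed between -0.25 and 0.34 with every other tested member. These are descriptions over 10 lines, 8 of which derive from or are leader cells by the series title. For S100A16 the line means span 8.99 on this scale, and the lowest, in JAG1 knockout clone 72, rests on 1 count. Coefficients of S100A16 thus depend in part on a line near the floor. Outside the family, the genes whose line means were most like those of S100A16, among 1711 candidates, were GSN (Pearson 0.96, Spearman 0.85), ADGRG1 (0.93, 0.89) and ATXN7L3B (0.92, 0.92). For S100A4 they were DMTN (0.96, 0.95), MISP (0.95, 0.96) and CA11 (0.93, 0.96), and for S100A13 ARMCX1 (0.90, 0.88), PTGR1 (0.84, 0.83) and GSTM2 (0.81, 0.78). For S100A3, at its low counts, they were SYTL4 (0.91, 0.90), SQOR (0.91, 0.81) and SP100 (0.91, 0.92). GSN, an actin-severing protein, was highest in MYO10 knockout clone 99 at 251 CPM and lowest at 29.4 CPM.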

How the data were processed

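RNA-seq was done on 4 biological replicate cultures of each of 10 H1299 lines. Per the labels' protocols, RNA was column-purified and sequenced on a NovaSeq X-Plus; the kit named there is one for DNA libraries. Per the submitters' processing notes, the tools included HTSeq 2.0.5 and STAR 2.7.11b, with fastp 0.23.4 for reads and build hg38; strand setting and annotation release are not given in the sources used here. The authors deposited unnormalized read counts for each gene symbol, all of them whole numbers. No column was left out.

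From these, edgeR 4.0.16 (R 4.3.3) gave TMM-scaled CPM and robust quasi-likelihood tests with a coefficient per line over 40 libraries (30 residual degrees of freedom), on 19703 genes kept by filterByExpr (minimum count 10). Where several clones stood on a side, the p-value was the largest over pairs of lines, or 1 where pairs differed in sign, before Benjamini-Hochberg adjustment. Such a log2 value averages over clones, so it can depart from the ratio of mean CPM. Called means adjusted p under 0.05 and a log2 change of at least 1 in size. On simulated counts for leaders against followers (18647 genes), all 4-fold changes and 44% of 2-fold changes were called. All 2-fold changes passed the adjusted p, their size lying at the log2 threshold of 1. The changed genes were drawn from those with higher counts, with a common spread for all genes. These shares therefore do not cover low-count members such as S100A3 and S100A4. Reads carry no molecular identifiers, so floors (3 counts) and intervals (95%, exact) cover counting error only.

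Gene lists were annexins, plasminogen system, intracellular targets, receptors, other EF-hand genes, other S100 genes and epidermal differentiation complex genes. At most 3 called genes per list and comparison could be named. Some genes of the lists are not reported here. Likeness was the Pearson coefficient of line means of log2 CPM, over tested protein-coding genes reaching 5 CPM with means spanning at least 2; the 3 highest were named for members spanning at least 2. The members and lists were chosen with earlier results of these data known. Exon lengths are from GENCODE 29. Neighbours are from RefSeq GRCh38.p14, which placed 19456 of the 19703 tested symbols. Alternatives were DESeq2 1.42.0, limma-voom 3.58.1, DESeq2 size factors, library totals alone, other filters, only the compared lines, a replicate block, no fold threshold, each culture left out, and counts summed per line.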

Additional observations from a re-analysis of the deposited data

Results flagged for a closer look

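Among 61 groups of 4 cultures examined, 1 held a culture far from the others, where chance flags about 1 in 20. It was S100A11 in culture 3 of MYO10 knockout clone 98, at 158 CPM, with the other cultures at 119 to 125 CPM. The same culture held the highest S100A10 of that clone, 346 CPM. Culture 3 had the highest S100A11 in 8 of the 10 lines, clone 98 included, and the highest S100A10 in 4 of 10. Knockout clones of the same genotype were called as different in 4 results, and the wild-type clones in 1, by a direct test with edgeR. Between MYO10 knockout clones 98 and 99, S100A13 differed by -2.26 and S100A16 by -3.29 on the log2 scale. Between JAG1 knockout clones 35 and 72, S100A4 differed by 2.07 and S100A16 by 6.09, the last of which rests on 1 count in clone 72. Between wild-type clones 38 and 75, S100A4 differed by -1.83.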

How the results depend on the processing

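Of the 250 values of single called genes under other settings, 247 kept direction and call, 3 lost the call and 0 changed sign; of 198 counts of called members, 188 stayed within 1.5 times and 10 did not. Without the fold threshold the counts became 3 (leaders against followers), 1 (leaders against parental cells), 2 (followers against parental cells), 4 (wild-type clone 38 against 75), 6 (JAG1 knockout clone 35 against 72), 4 (MYO10 knockout clones against wild-type clones), 4 (clone 98 against 99) and 2 (clone 84 against wild-type clones); the shares of all genes passing then were 65.1%, 37.1%, 61.0%, 25.5%, 61.9%, 23.8%, 44.5% and 28.7% in that order. With counts summed per line, 0 members were called for MYO10 knockout: S100A4 had 2.18 (edgeR adjusted p = 0.42) and S100A16 4.59 (edgeR adjusted p = 0.42), with 3 residual degrees of freedom. For JAG1 knockout the same test also called 0, with 1135 genes at an unadjusted p under 0.05. Without cultures 3 and 4 of clone 84, an alternative added after seeing the data, 0 members were called, S100A16 having 0.65 (edgeR adjusted p = 0.35). The stricter filter (50 counts in 4 libraries, 14489 genes) lowered the count of all genes called by over 1.5 times in 6 comparisons. The labels do not say that a replicate number marks a shared batch, and the numbers were not taken as pairs. Same-numbered cultures of 2 lines had a median correlation of 0.021 over 180 pairs, 21 above 0.1. However, 27 of 40 cultures correlated best with their own number among the 4, more than an even spread over the numbers would give. That is a sign in the data of something shared by number, which was not identified. The fit with a replicate block left the count of called members the same in all 10 comparisons, at 2 for MYO10 knockout. Leaving out a single culture ended no call. S100A3, S100A4 and, outside clone 99, S100A16 are limited by low counts.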
